A study of Mus musculus with 96 samples.

Results

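The genes described here are zinc finger genes measured in the mouse brain: all gene symbols on the array with the numbers Zfp600 to Zfp999, and all symbols that start with Zkscan or Zscan. They were chosen by symbol, and the probe set with the highest mean signal stood for each gene. This gave 184 of the 19505 genes with a symbol, of which 158 were Zfp600 to Zfp999 genes, 11 were Zkscan genes and 15 were Zscan genes. No gene was removed for a low signal. RefSeq lists Zscan4a as a transcribed pseudogene and the others as protein coding. The set was picked with earlier results of these hemisphere differences known, so its counts are given as a description.

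C2H2 zinc finger proteins bind DNA through arrays of fingers, each of which contacts a few bases. Many carry a KRAB domain, which recruits Trim28 (also called KAP1), the scaffold for the histone methyltransferase Setdb1, heterochromatin protein 1 and histone deacetylases, and they are best known for silencing transposable elements. Zscan and Zkscan proteins carry a SCAN domain, through which they pair with each other, and Zkscan proteins can hold a KRAB domain as well. Most of these genes lie in clusters that grew by duplication, so that neighbours are often close copies.

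RNA was measured on Clariom S Mouse arrays in both hemispheres of a brain slice at bregma, taken after perfusion with saline. Diabetic mice were BKS-Leprdb/db/JOrlRj males of 8 to 12 weeks, which carry a mutation in the leptin receptor gene. Old mice were C57Bl/6j males of 18 months, and male mice were C57Bl/6j males of 8 to 12 weeks. The middle cerebral artery of MCAO mice was occluded with a filament for 90 min and the tissue was taken 30 min after reperfusion, 2 h from onset. Sham mice had the surgery with no filament. The right hemisphere was ipsilateral (IP) and the left one contralateral (CL). There were 8 MCAO and 4 sham mice in the diabetic group, 8 and 4 in the old group, and 7 and 3 in the male group, each a separate animal with 1 IP and 1 CL array. Leprdb/db mice are obese and are on another strain background than the old and male mice, so the mutation and the strain cannot be told apart.

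Before any result, 3 points on the arrays bear on what follows. Male MCAO mouse 3 and male sham mouse 1 were left out, because the arrays of these animals correlated at only 0.418 to 0.591 with the rest of their group, against 0.975 to 0.983 for the male arrays used. The paper instead removed ischaemic male mice only and kept all male shams, so the male mice used here differ from its set. In the diabetic and old columns 8800 probe sets stood 3 rows late and were moved back, which took in 65 of the 184 genes. All zinc finger genes of the set on chromosome 13, Zkscan4 among them, lie in these moved rows. Early response genes such as Fos and Atf3, which mark the ischaemic side, were called higher in IP for 8 of 8 genes in diabetic, 4 of 8 in old and 8 of 8 in male MCAO mice. In diabetic MCAO mouse 5 only 3 of the 8 genes (Atf3, Fos and Hspa1a) were higher in IP, with a median difference of -0.04, and in old MCAO mouse 8 only 3 (Fosb, Npas4 and Ptgs2), with a median of -0.25.

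In diabetic MCAO mice, zinc finger genes with a lower IP signal far outnumbered those with a higher one. In limma on the difference IP minus CL of each mouse, 72 of the 184 genes were called lower and 5 higher at an adjusted p under 0.25, the threshold of the study, and 107 were not called. Over all genes 11.4% were called lower and 10.7% higher, while 39.1% of the zinc finger genes were called lower. Their median difference was -0.15 on the log2 scale, or an IP signal at 90.1% of CL, against a median of 0.02 over all genes. A difference below 0 was found for 141 of the 184 genes. At an adjusted p under 0.05, 13 were lower and 0 higher, beside 1.25% of all genes called lower. The weakest called gene had an adjusted p of 0.247 and the first gene past the threshold one of 0.252.

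The falls were mostly small. Among the 72 genes called lower, the mean difference ran from -0.16 to -1.21 with a median of -0.34, an IP signal at 78.8% of CL, and 8 genes fell by more than 0.5. In all 8 mice 17 of these genes were lower in IP, 35 were lower in 7 of the 8 mice, and 20 in 5 or 6 mice. The IP and CL arrays measure bulk tissue, in which fewer cells of a type and less RNA per cell cannot be told apart. The count depended on single animals: 46 genes were called lower without diabetic MCAO mouse 2. Of the 65 genes in moved rows 28 were called lower, and of the 119 in unmoved rows 44 were.

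**Figure D1:**
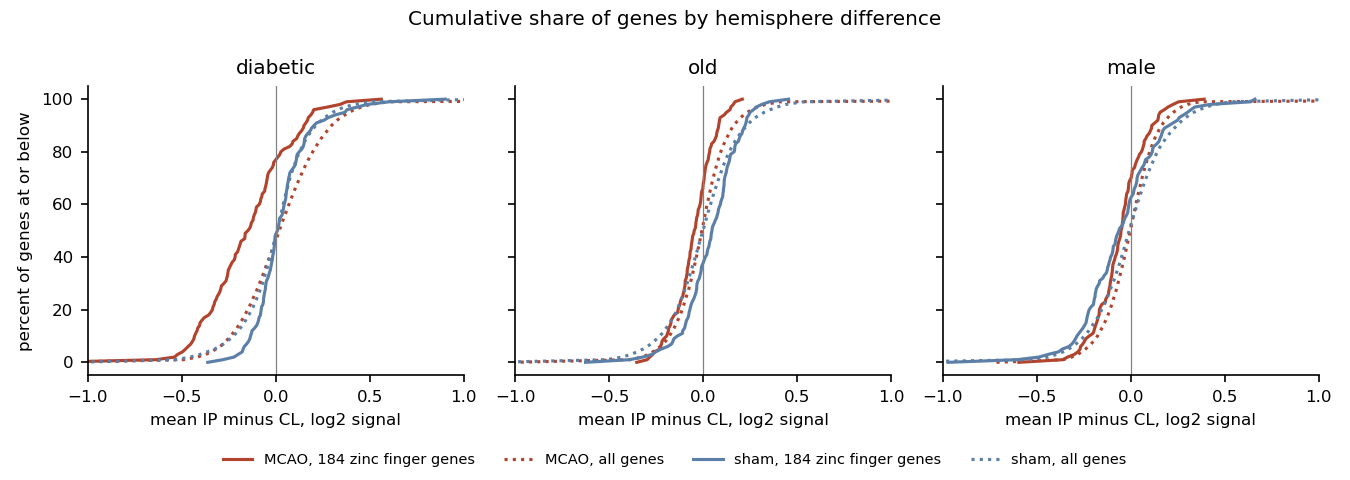
Cumulative share of genes (y axis, percent) by mean IP minus CL (x axis, log2 signal) for the zinc finger genes and for all genes, in diabetic, old and male mice after MCAO and after sham surgery. In diabetic MCAO mice the curve of the 184 zinc finger genes lies left of that of all 19505 genes, with medians of -0.15 and 0.02 (Zkscan4, at -1.21, lies beyond the left end of the axis).

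Zkscan4, a SCAN zinc finger gene, had the largest fall. Its log2 signal in IP was 5.30, 3.86, 5.71, 5.10, 4.89, 5.04, 5.93 and 5.44 in diabetic MCAO mice 1 to 8, and in CL it was 6.39, 6.10, 6.74, 6.69, 6.23, 6.19, 6.34 and 6.23. IP was below CL in all 8 mice. In diabetic sham mice 1 to 4 the signal was 6.65, 6.61, 6.32 and 6.42 in IP, and 6.14, 6.46, 6.15 and 5.73 in CL, so that IP was above CL in all 4. The IP signals of MCAO and sham mice did not overlap and the CL signals did. Zkscan4 was named for its fall in these same MCAO mice, which favours such a gap. The share of all genes with no overlap was not counted. The mean difference was -1.21 (SE 0.156, adjusted p 0.00493 in limma), which leaves the IP signal at 43.3% of CL. The differences in old MCAO mice, from -0.73 to 0.62, lay on both sides of 0, and in male MCAO mice they ran from -1.39 to 0.68 with 5 of 7 below 0. The mean was -0.07 (SE 0.142, adjusted p 0.950) in old and -0.41 (SE 0.235, adjusted p 0.795) in male MCAO mice. Log2 signals of Zkscan4 in male MCAO arrays ran from 2.24 to 3.92, on the scale of that group. No test of signal above background was made.

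**Figure D2:**
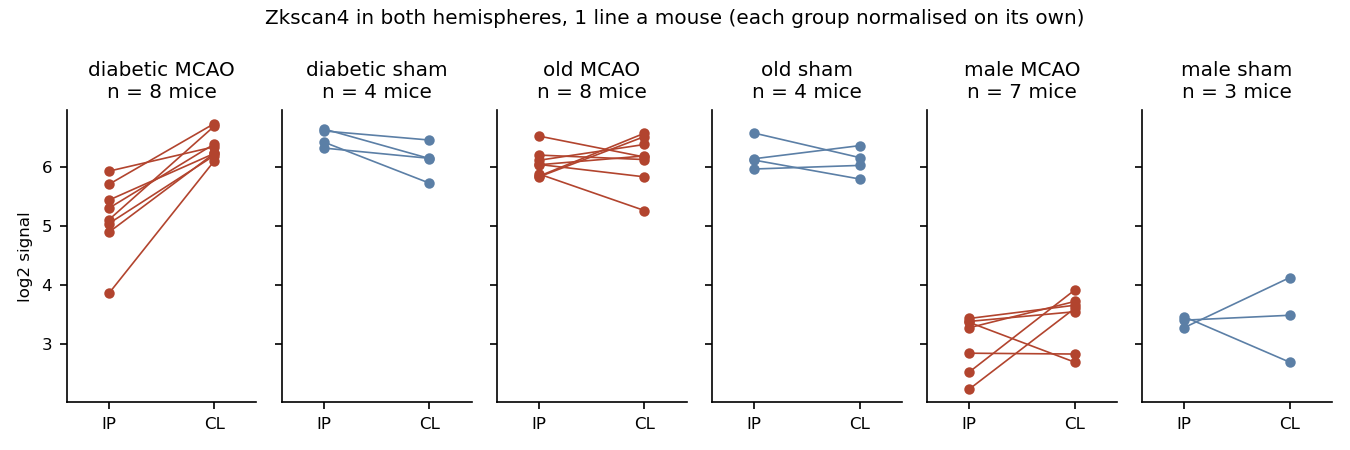
Log2 signal of Zkscan4 (y axis) in the IP and CL hemispheres (x axis), with 1 line for each mouse and a panel for each group and surgery. All 8 lines of the diabetic MCAO mice run higher in CL, while all 4 lines of the diabetic sham mice run higher in IP; each group was normalised on its own, so levels are not compared between groups.

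Zfp759 and its neighbour Zfp712 on chromosome 13 were also among the largest falls. IP minus CL of Zfp759 was -2.12 at the lowest, -0.62 at the median and 0.26 at the highest in diabetic MCAO mice, against 0.06, -0.22, 0.17 and -0.03 in sham mice 1 to 4. The ranges overlapped, and 7 of 8 MCAO mice were below 0. The mean was -0.73 (SE 0.197, adjusted p 0.0648). For Zfp712 the lowest, median and highest values were -0.85, -0.51 and -0.03 after MCAO, against -0.12, 0.29, -0.49 and 0.20 in sham mice. All 8 MCAO mice were below 0, with a mean of -0.49 (SE 0.108, adjusted p 0.0370), but the sham mice overlapped with them.

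For Zfp953 and Zfp764 the IP minus CL values of diabetic MCAO and sham mice did not overlap. IP minus CL of Zfp953 was -1.29, -0.30 and 0.03 at the lowest, median and highest in diabetic MCAO mice, and 0.06, 0.23, 0.30 and 1.18 in sham mice (mean after MCAO -0.53, SE 0.162, adjusted p 0.0944). Zfp764 had -0.91, -0.59 and 0.01 after MCAO, and 0.18, 0.26, 0.76 and 0.28 in sham mice (mean after MCAO -0.52, SE 0.115, adjusted p 0.0372). In both genes every MCAO mouse lay below every sham mouse, as it did for Zkscan4 and Zfp729b among the named genes. The named genes were chosen by calls in these same MCAO mice, which favours such a separation. The share of all genes that separate in this way was not counted. Zfp984 did not show this separation. Its values were -1.70, -0.60 and 0.76 after MCAO, against 0.76, 0.88, 0.71 and 0.06 in sham mice, with a mean after MCAO of -0.62 (SE 0.202, adjusted p 0.109). Zfp791 was below 0 in all 8 MCAO mice, with -1.41, -0.38 and -0.04 at the lowest, median and highest and a mean of -0.52 (SE 0.140, adjusted p 0.0626).

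The 13 genes past the stricter threshold were Zkscan4, Zfp809, Zfp959, Zscan12, Zfp933, Zfp781, Zfp712, Zfp764, Zfp661, Zfp874a, Zfp873, Zfp930 and Zfp719, of which Zfp809, Zfp959, Zfp661, Zfp930 and Zfp719 are named after their values were seen. Zfp809 is the best studied of these; in mouse embryonic stem cells it binds the primer binding site of retroviruses and recruits Trim28 to silence them. Its difference was -0.78, -0.48 and -0.12 at the lowest, median and highest in diabetic MCAO mice, against -0.14, 0.02, -0.29 and 0.08 in sham mice. All 8 MCAO mice were below 0, with a mean of -0.47 (SE 0.0850, adjusted p 0.0175), but the surgeries overlapped. Zfp933 lay between -0.68 and -0.11 and Zfp781 between -1.05 and -0.18 in the 8 diabetic MCAO mice, with means of -0.43 (adjusted p 0.0236) and -0.48 (adjusted p 0.0293).

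Genes called higher were few. Zscan4c and Zscan4a belong to a family known for bursts of expression in early embryos and in a small share of embryonic stem cells, where they act in telomere maintenance. IP minus CL of Zscan4c was -0.02, 0.49 and 1.52 at the lowest, median and highest in diabetic MCAO mice, and 0.85, 0.10, -0.86 and -0.12 in sham mice, so the surgeries overlapped. Its mean after MCAO was 0.56 (SE 0.188, adjusted p 0.114) and that of Zscan4a was 0.37 (SE 0.138, adjusted p 0.152). The copies Zscan4b, Zscan4d and Zscan4f were not called, at -0.21, -0.11 and 0.14. In diabetic sham mice Zscan4a had a mean of 0.22, Zscan4b 0.56, Zscan4d -0.06 and Zscan4f 0.90. Differences as large as those after MCAO thus also occurred after sham surgery. These copies are nearly identical, and probes for one may bind RNA of another. The other 3 genes called higher were Zfp775 at 0.37, above 0 in all 8 mice, Zfp750 at 0.33, which acts in epidermal differentiation, and Zfp608 at 0.27.

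By name, 64 of the 158 Zfp600 to Zfp999 genes (40.5%) were called lower and 3 (1.90%) higher, with a median of -0.16. Over all genes it was 11.4% lower and 10.7% higher. Of the 11 Zkscan genes 4 (36.4%) were lower and 0 higher, with a median of -0.11. Besides Zkscan4 these were Zkscan1 at -0.35 (adjusted p 0.0840), Zkscan14 at -0.20 (adjusted p 0.234) and Zkscan16 at -0.19 (adjusted p 0.147). The call of Zkscan14 was lost in 10 of 12 fits that left out 1 mouse. Zkscan3, known in human cells as a repressor of autophagy genes, had 0.02 (adjusted p 0.899). Of the 15 Zscan genes 4 (26.7%) were lower and 2 (13.3%) higher, with a median of -0.11. The lower ones were Zscan12 at -0.44 (adjusted p 0.0224), Zscan21, also known as Zipro1 from cerebellar granule cell precursors, at -0.36 (adjusted p 0.0666), Zscan26 at -0.23 (adjusted p 0.107) and Zscan22 at -0.22 (adjusted p 0.187). Zinc finger genes outside this range of symbols were tested in the same fit. Of the 197 genes Zfp1 to Zfp599, 70 (35.5%) were called lower and 8 (4.06%) higher, with a median of -0.15. A fall was therefore also common among Zfp genes outside the set. Of 36 Zbtb genes, which pair zinc fingers with a BTB domain, 9 (25%) were lower and 3 (8.33%) higher, with a median of -0.10.

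**Figure D3:**
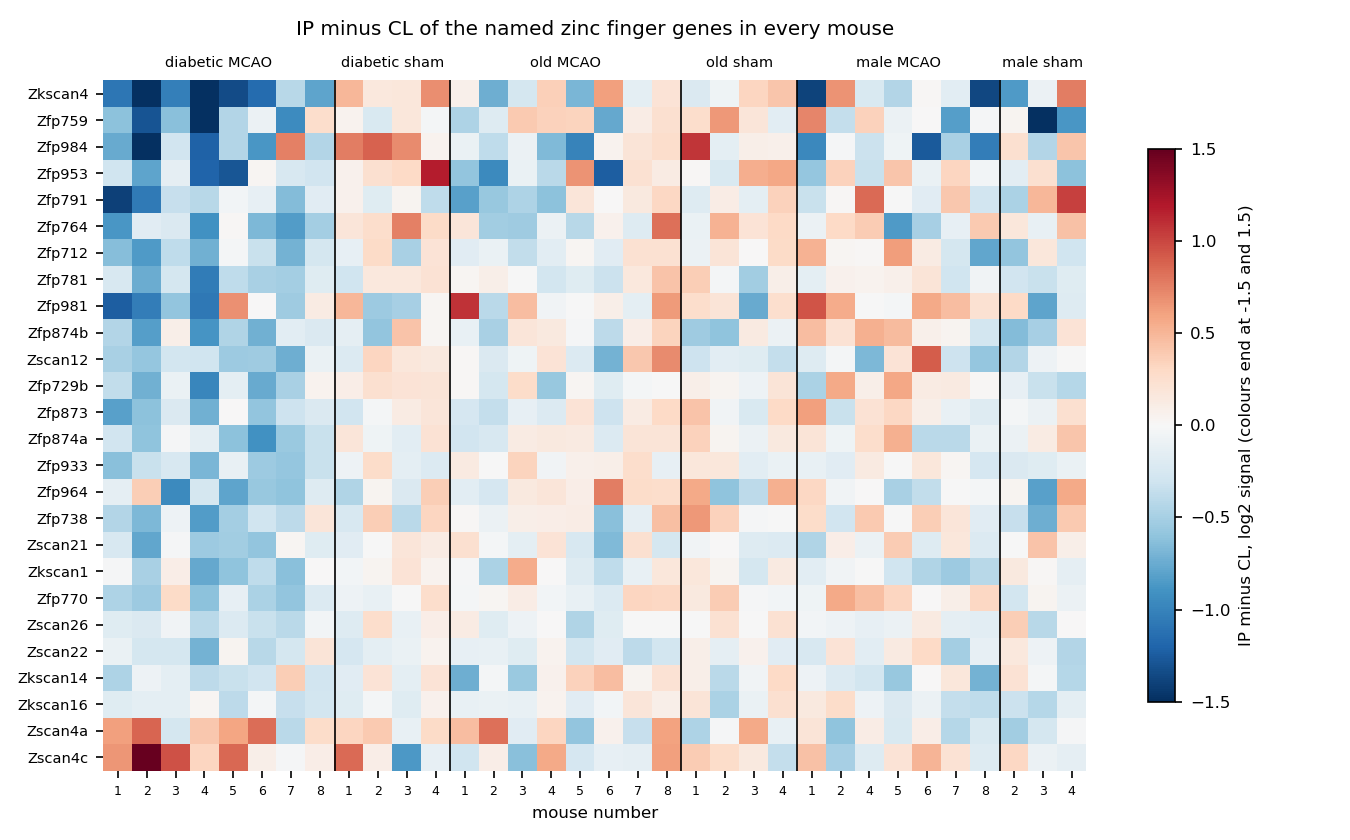
IP minus CL (colour, log2 signal, ending at -1.5 and 1.5) of the named zinc finger genes (rows) in every mouse (columns), by group and surgery. Zkscan4 is negative in all 8 diabetic MCAO mice and positive in all 4 diabetic sham mice, while Zscan4c is below 0 in 1 of the 8 MCAO mice.

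The share of genes called lower varied between chromosomes. On chromosome 13, 13 of 17 zinc finger genes (76.5%) were called lower in diabetic MCAO mice, against 94 of 723 other genes of that chromosome (13.0%). On chromosome 7 it was 19 of 47 (40.4%, against 9.24% of other genes) and on chromosome 17 it was 10 of 25 (40%, against 10.8%). On chromosome 11 it was 1 of 10 (10%), near the 12.35% of other genes there. Genes were joined into a run where the next one started under 2 Mb away, and 12 runs of 5 or more genes held 98 of the 184 (53.3%) and 45 of the 72 genes called lower (62.5%), a difference that was not tested. In the run from Zfp712 to Zfp738 on chromosome 13 all 9 genes (Zfp712, Zfp759, Zfp953, Zfp874a, Zfp874b, Zfp748, Zfp729b, Zfp729a and Zfp738) were called lower, with a median of -0.44. The median of the same 9 genes was -0.06 in old MCAO mice, 0.04 in male MCAO mice and 0.01 in diabetic sham mice. Zfp874a and Zfp874b, and Zfp729a and Zfp729b, are close copies that may share probe signal.

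A second run on chromosome 13, from Zscan12 to Zkscan8, held Zscan12, Zkscan3, Zscan26, Zkscan4 and Zkscan8. In it 3 of 5 genes were called lower, while Zkscan8 had -0.34 at an adjusted p of 0.253 and Zkscan3 had 0.02. On chromosome 7, 5 of 7 genes from Zfp607b to Zfp940 were lower, and 5 of 9 from Zfp771 to Zfp646. The median of the run from Zfp771 to Zfp646 was -0.19 in diabetic, -0.19 in old and -0.11 in male MCAO mice, so that it was as negative in old mice as in diabetic ones. On chromosome 17 it was 6 of 15 from Zfp677 to Zscan10, and on chromosome 4 it was 3 of 9 from Zfp980 to Zfp933. From Zfp788 to Zfp819 on chromosome 7 it was 4 of 8. The other 5 runs had 2 genes called lower each, among 5 to 9 genes, and the run from Zscan4a to Zscan22 also had 2 called higher. Beside these counts, 11.4% of all genes were called lower and 10.7% higher in diabetic MCAO mice.

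**Figure D4:**
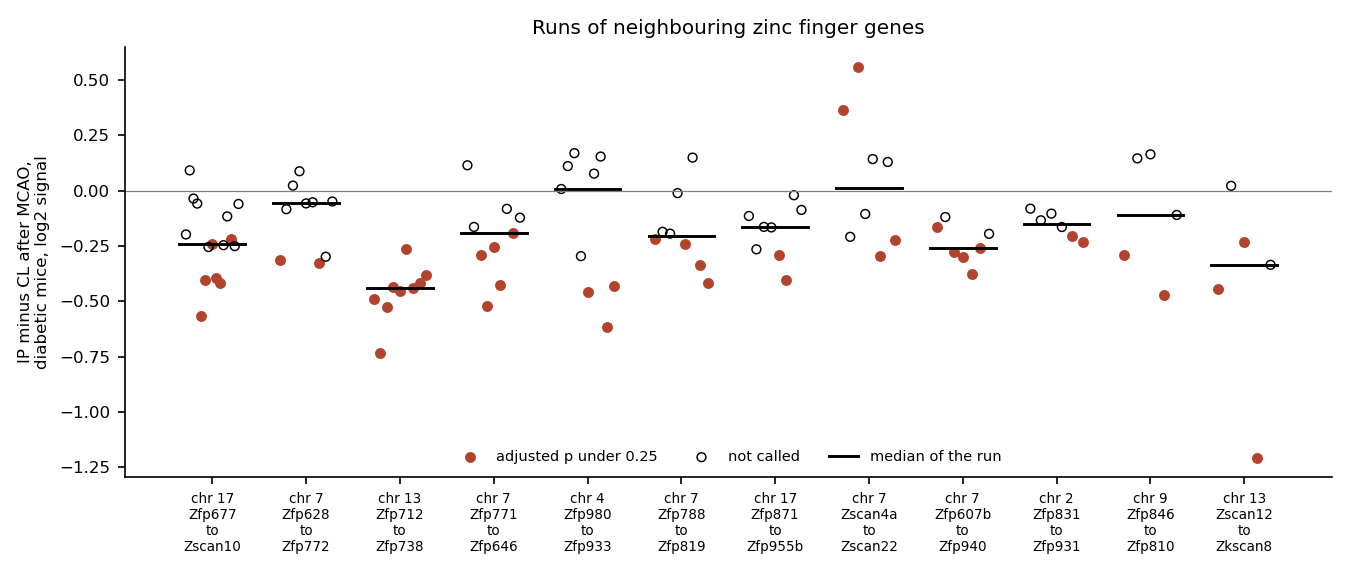
Mean IP minus CL after MCAO in diabetic mice (y axis, log2 signal) of each zinc finger gene in 12 runs of neighbouring genes (x axis), filled at an adjusted p under 0.25 and open otherwise, with a bar at the median of the run. All 9 genes of the run from Zfp712 to Zfp738 on chromosome 13 lie below 0 and were called lower.

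The promoters of 6 genes called lower are shown, chosen after their values were seen, 4 from the runs on chromosome 13 and Zfp933 and Zfp781 from among those also called between groups: 250 bases before to 50 after the transcription start, 5′ to 3′ on the strand of the gene, from RefSeq on GRCm38.p6. Zkscan4 is at chr13:21478599-21478898 on the plus strand, Zscan12 at chr13:21362570-21362869 on the plus strand, Zfp759 at chr13:67127978-67128277 on the plus strand, Zfp712 at chr13:67061121-67061420 on the minus strand, Zfp933 at chr4:147848369-147848668 on the minus strand and Zfp781 at chr10:81930463-81930762 on the minus strand. Capitals mark the letters CCGGAAG (the core bound by ETS factors), CCAAT or GGGCGG (the GC box) on either strand.
Zkscan4: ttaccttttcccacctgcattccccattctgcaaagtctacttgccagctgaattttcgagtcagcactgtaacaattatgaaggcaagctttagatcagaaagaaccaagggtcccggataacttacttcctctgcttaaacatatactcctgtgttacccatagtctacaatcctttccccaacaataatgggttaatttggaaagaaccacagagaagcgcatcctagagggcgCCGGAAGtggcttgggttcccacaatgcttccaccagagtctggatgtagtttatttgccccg
Zscan12: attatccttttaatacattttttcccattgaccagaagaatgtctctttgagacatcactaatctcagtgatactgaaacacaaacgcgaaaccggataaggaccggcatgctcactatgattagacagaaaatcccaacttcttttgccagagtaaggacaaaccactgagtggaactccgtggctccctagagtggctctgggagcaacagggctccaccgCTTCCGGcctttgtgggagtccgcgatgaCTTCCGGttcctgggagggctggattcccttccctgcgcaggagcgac
Zfp759: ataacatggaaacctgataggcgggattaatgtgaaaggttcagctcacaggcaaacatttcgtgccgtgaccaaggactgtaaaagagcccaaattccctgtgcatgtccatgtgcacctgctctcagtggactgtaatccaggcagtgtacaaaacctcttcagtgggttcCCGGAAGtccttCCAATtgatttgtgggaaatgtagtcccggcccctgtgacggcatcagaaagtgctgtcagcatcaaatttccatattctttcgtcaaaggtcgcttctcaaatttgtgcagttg
Zfp712: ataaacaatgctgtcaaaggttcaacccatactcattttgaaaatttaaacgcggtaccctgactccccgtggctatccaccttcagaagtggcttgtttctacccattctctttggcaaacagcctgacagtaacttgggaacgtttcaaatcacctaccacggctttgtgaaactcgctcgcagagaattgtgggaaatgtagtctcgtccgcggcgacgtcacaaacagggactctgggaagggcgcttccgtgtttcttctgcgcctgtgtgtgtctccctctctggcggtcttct
Zfp933: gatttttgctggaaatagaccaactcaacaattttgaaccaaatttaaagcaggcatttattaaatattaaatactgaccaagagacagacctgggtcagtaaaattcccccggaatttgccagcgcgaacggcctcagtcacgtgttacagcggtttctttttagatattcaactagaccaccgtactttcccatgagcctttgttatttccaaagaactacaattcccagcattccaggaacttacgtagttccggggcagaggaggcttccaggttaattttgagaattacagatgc
Zfp781: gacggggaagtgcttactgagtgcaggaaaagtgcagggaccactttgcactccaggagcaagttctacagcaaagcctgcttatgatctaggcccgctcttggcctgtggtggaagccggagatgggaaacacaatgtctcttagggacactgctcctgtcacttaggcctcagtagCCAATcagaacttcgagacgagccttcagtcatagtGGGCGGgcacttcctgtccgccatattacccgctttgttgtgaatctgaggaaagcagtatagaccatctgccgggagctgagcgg
The letters CCGGAAG or their reverse complement occurred at 1 place in Zkscan4, at 2 in Zscan12 and at 1 in Zfp759, and at 0 in Zfp712, Zfp933 and Zfp781. Of the 184 genes 157 had a promoter in the table, with 189 windows. CCGGAAG or its reverse complement was present in 18.0% of these windows, against 8.86% of all 32851 promoter windows. It was present in 21.9% of the 73 windows of genes called lower and in 15.5% of the 116 windows of the other zinc finger genes. CCAAT was found in 52.4% of the 189 windows and in 37.4% of all windows. GGGCGG was found in 26.0% of the windows of genes called lower, in 51.7% of those of the other zinc finger genes and in 35.7% of all windows. These are matches of letters, and binding was not measured.

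Genes that work with these proteins were described next, from lists of known factors. Of 32 genes of the KRAB co-repressor machinery 28 were measured. In diabetic MCAO mice 8 were called lower and 1 higher, with a median of -0.07, beside 11.4% and 10.7% of all genes. Trim28 itself had a difference of -0.35 (adjusted p 0.121), Setdb1, its methyltransferase partner, -0.26 (adjusted p 0.129), and Daxx, a chaperone of histone H3.3, -0.35 (adjusted p 0.0622). The other lower genes were Resf1, Morc3, Suv39h2, Atf7ip and Hdac2, at -0.19 to -0.28. In diabetic sham mice Trim28, Setdb1 and Daxx had -0.06, -0.04 and -0.22, and none of the 28 genes was called. Chd3, a remodeller of the NuRD complex, was higher at 0.29 (adjusted p 0.160). In old and male MCAO mice, where under 1% of all genes were called, 0 of these 28 genes were. Of 7 SCAN domain genes with other names 6 were measured and 4 were called lower. These were Pgbd1 at -0.85 (adjusted p 0.0454), Zfp110 at -0.44 (adjusted p 0.0385), Zfp369 at -0.39 (adjusted p 0.0424) and Zfp174 at -0.32 (adjusted p 0.223). In diabetic sham mice they had -0.57, 0.06, 0.07 and -0.03, in the same order, and none was called. Zfp110, Zfp369 and Zfp174 are also among the genes Zfp1 to Zfp599 counted above.

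The IP arrays and the CL arrays were also compared separately between MCAO and sham mice. In IP, 17 zinc finger genes were lower and 0 higher in diabetic MCAO than in diabetic sham mice, beside 2.03% of all genes called lower and 1.77% called higher. Of these 17 genes, 15 were among the 72 lower in IP minus CL. The changes ran from -1.34 for Zkscan4 (SE 0.290, adjusted p 0.0984) to -0.34 for Zfp974, with Zfp953 at -0.94 (adjusted p 0.101), Zfp729b at -0.75 (adjusted p 0.156), Zfp712 at -0.61 (adjusted p 0.191), Zfp809 at -0.48 (adjusted p 0.229) and Zscan12 at -0.44 (adjusted p 0.206). The exceptions were Zscan4f and Zkscan8, which were not called in IP minus CL. In CL 0 zinc finger genes were called, beside 0.0205% of all genes called lower. All 72 genes had a negative MCAO minus sham difference in IP, with a median of -0.34, while 25 of 72 did in CL, with a median of 0.05. The 72 were chosen on IP minus CL from the same arrays, which by itself lowers their IP and raises their CL values, so these medians are a description. The number called in IP was 0 without diabetic sham mouse 4 and 40 without diabetic MCAO mouse 3.

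In sham mice no gene on the array was called in IP minus CL in any of the groups. At an unadjusted p under 0.05, 5 zinc finger genes passed in diabetic sham mice (2.72%, against 3.14% of all genes), 8 in old (4.35%, against 5.43%) and 13 in male sham mice (7.07%, against 5.35%). The difference of IP minus CL between MCAO and sham, the direct test against surgery, called 0 zinc finger genes in limma in each of the groups. Of all 19505 genes it called 0 in diabetic and 0 in old mice, and 1 lower and 2 higher in male mice. The 0 therefore does not set the zinc finger genes apart from the rest of the array. At an unadjusted p under 0.05 this test passed 35 zinc finger genes in diabetic mice (19.0%, against 9.80% of all genes), 33 of these lower. It passed 13 in old mice (7.07%, against 5.92%) and 12 in male mice (6.52%, against 5.93%). The smallest adjusted p among the zinc finger genes was 0.258 for Zkscan4 in diabetic mice, at -1.59, and Zfp764 followed with 0.259, at -0.89. The median over the 184 genes was -0.19 in diabetic, -0.09 in old and 0.00 in male mice, against 0.01 over all genes in diabetic mice.

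In old MCAO mice 0 zinc finger genes were called, where 0.0103% of all genes were lower and 0.0308% higher. In male MCAO mice it was 0 as well, where 0.133% were lower and 0.338% higher. At an unadjusted p under 0.05, 17 passed in old mice (9.24%, against 7.11% of all genes), 16 of them lower, and 15 in male mice (8.15%, against 7.16%), 12 of them lower. Medians over the 184 genes were -0.05 in old and -0.05 in male mice, with 125 and 127 genes below 0. Of the 72 genes called lower in diabetic mice, 56 had a mean below 0 in old MCAO mice, with a median of -0.06, and 49 in male MCAO mice, with a median of -0.05. In sham mice it was 25 of the 72 in old, with a median of 0.07, and 53 in male mice, with a median of -0.10, so that in male mice these genes were more often below 0 after sham surgery than after MCAO; this difference was not tested. The smallest adjusted p in old mice was that of Zfp760, which was below 0 in all 8 animals with -0.35, -0.29 and -0.01 at the lowest, median and highest (mean -0.23, SE 0.0650, adjusted p 0.420). In male mice it was that of Zfp984, below 0 in all 7 animals with -1.26, -0.49 and -0.02 (mean -0.60, SE 0.158, adjusted p 0.327).

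The IP arrays of male MCAO and sham mice gave 1 zinc finger gene: Zfp648 was lower after MCAO by a log2 difference of -0.92 (SE 0.159, adjusted p 0.0254), beside 0.154% of all genes called lower and 0.4% higher. Its IP minus CL was -0.61, -0.29 and 0.01 at the lowest, median and highest in male MCAO mice. In male sham mice 2 to 4 it was 0.57, 0.64 and 0.77, with no overlap. The share of all genes with no overlap was not counted. In old IP arrays 0 zinc finger genes were called, beside 0.133% of all genes lower and 0.241% higher. In CL arrays of old and of male mice 0 were called, beside 0 of all genes lower and 1 higher in each group.

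The difference between the groups was tested on IP minus CL of the MCAO mice in 1 fit. Against male mice, 19 zinc finger genes were more negative and 3 (Zfp704, Zfp653 and Zfp775) more positive in diabetic mice, beside 3.8% and 3.29% of all genes. All 19 were among the 72, but both calls use the same diabetic MCAO mice, which favours this overlap in advance. Male mice were run in an earlier set of experiments than the diabetic and old mice, and the group and the set cannot be told apart. Zfp770 had the smallest adjusted p. Its IP minus CL was -0.62, -0.46 and 0.28 at the lowest, median and highest in diabetic MCAO mice, and -0.07, 0.31 and 0.57 in male MCAO mice, with 7 of 8 diabetic and 1 of 7 male mice below 0. Diabetic minus male was -0.58 (SE 0.133, adjusted p 0.0805) for Zfp770, -0.67 (SE 0.160, adjusted p 0.0828) for Zfp874b and -0.85 (SE 0.258, adjusted p 0.155) for Zfp981. Zfp981 had a low signal, of 2.32 to 4.05 in diabetic and 1.68 to 2.72 in male MCAO arrays on the log2 scale, and no test of signal above background was made.

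Against old mice, which were run in the same set, 6 zinc finger genes were more negative in diabetic mice and 0 more positive, beside 0.984% and 1.48% of all genes. These were Zfp933, Zkscan4, Zfp781, Zfp964, Zfp874a and Zfp770, and 5 of them were also more negative than in male mice. Both comparisons share the diabetic mice. Diabetic and old mice differ in age, strain and leptin receptor genotype at once, and these cannot be told apart. The paper also lists a different filament type for diabetic, old and young male mice. Zfp933 ran from -0.68 to -0.11 in the 8 diabetic and from -0.13 to 0.34 in the 8 old MCAO mice, and only the ends of these ranges overlapped. Diabetic minus old was -0.52 (SE 0.0993, adjusted p 0.0672) for Zfp933, -1.14 (SE 0.278, adjusted p 0.210) for Zkscan4 and -0.39 (SE 0.129, adjusted p 0.249) for Zfp770. Of 23 fits that each left out 1 mouse, the call was lost in 19 for Zfp770, 13 for Zfp874a, 8 for Zfp964, 7 for Zfp781, 6 for Zkscan4 and 0 for Zfp933. Between old and male mice 0 zinc finger genes were called, but 0 of all 19505 genes were called there as well. The count against old mice was 1 without diabetic MCAO mouse 1 and 16 without diabetic MCAO mouse 8, and that against male mice was 7 without male MCAO mouse 4.

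By mouse, the median over the 184 genes was -0.14, -0.29, -0.12, -0.26, 0.05, -0.17, -0.23 and -0.05 in diabetic MCAO mice 1 to 8, and -0.07, 0.03, 0.05 and 0.10 in diabetic sham mice 1 to 4. In all 8 MCAO mice it lay below the median over all genes of the same mouse. Mouse 5 was the only one above 0, and there the median over all genes was 0.19. Zkscan4 had a difference of -1.34 in this mouse. In old MCAO mice the medians ran from -0.16 to 0.14 with 7 of 8 below 0, and in male MCAO mice from -0.18 to 0.05 with 5 of 7 below 0.

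**Figure D5:**
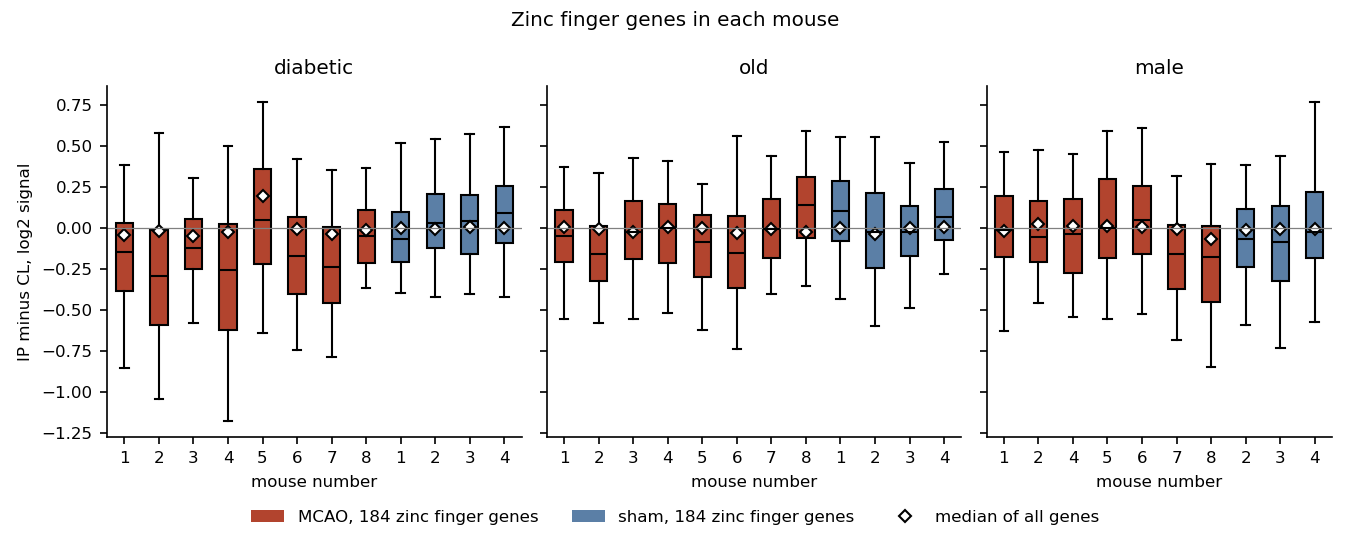
IP minus CL (y axis, log2 signal) of the 184 zinc finger genes in each mouse (x axis), by group and surgery, with boxes from the lower to the upper quartile, a line at the median, whiskers from the 5th to the 95th percentile and a diamond at the median of all genes. The zinc finger median lies below that of all genes in all 8 diabetic MCAO mice and is above 0 in mouse 5 alone among them.

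Some markers of cell types were called in the same diabetic MCAO mice, in which 11.4% of all genes were called lower and 10.7% higher. Of 6 neuronal markers 3 (Rbfox3, Snap25 and Nefl) were called lower in IP, with mouse medians of the list from -0.31 to 0.03, against -0.05 to 0.06 in sham mice. All 3 measured neutrophil markers were higher, with mouse medians from 0.01 to 1.90, against -0.33 to 1.32 in sham mice. Of oligodendrocyte markers 2 of 3 were higher, of endothelial markers 1 of 4 was higher, and Alas2 of red blood cells was higher, while 0 of 4 astrocyte, 0 of 4 microglia and 0 of 3 choroid plexus markers were called. The part of these cells in the zinc finger decrease was not tested.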

How the data were processed

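Mouse brain RNA was hybridised to Clariom S Mouse arrays. The authors deposited log2 signals, made in R with oligo by robust multi-array averaging (background adjustment, log2 transformation, quantile normalisation) for each group on its own. The labels' processing notes also name Affymetrix Expression Console. Levels are therefore not compared between groups: medians were 1.82 (diabetic) and 1.80 (old) above the male level. Array number limits the precision.

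Of 96 arrays, 68 from 34 mice were used. The 24 female arrays were left out because their hemisphere labels are in doubt, and 2 male mice for poor arrays. In diabetic and old columns 8800 probe sets were moved up by 3 rows, which changed their correlation with the male arrays from 0.17 to 0.97 in diabetic and 0.98 in old columns. Of 29129 probe sets 19572 had 1 symbol in the platform annotation, and all 184 zinc finger genes matched RefSeq.

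IP minus CL of each mouse, both hemispheres of the same animal, was tested with limma 3.58.1 (R 4.3.3) over all genes, MCAO and sham mice of a group in 1 fit, with Benjamini-Hochberg adjustment at 0.25. The deviations of IP and CL of 1 mouse correlated at a median of 0.10 in diabetic, 0.12 in old and 0.14 in male mice. Alternatives were centring, filters, the threshold, probe set means, variance, pairing and samples left out.

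Values are named for up to 8 called genes with the largest change in a group, moving one way in all mice or all but 1, up to 8 called genes by smallest p in each other comparison, and every called Zkscan, Zscan and co-repressor gene. The genes and lists were chosen with earlier results of these data known.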

Additional observations from a re-analysis of the deposited data

Results flagged for a closer look

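Among the named genes, 4 animals lay far from the rest of their group in IP minus CL: diabetic MCAO mouse 7 for Zkscan14 at 0.37, diabetic sham mouse 1 for Zfp781 at -0.30, old sham mouse 3 for Zfp981 at -0.76 and male MCAO mouse 6 for Zscan26 at 0.13. These came from 135 groups tested, and chance gives about 1 in 20.

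In diabetic against male MCAO mice limma called 19 genes lower and 3 higher, and the 8 with the smallest p are listed. They were Zfp770 (-0.58), Zfp874b (-0.67), Zfp933 (-0.40), Zfp781 (-0.47), Zfp729b (-0.59), Zfp873 (-0.52), Zfp981 (-0.85) and Zfp738 (-0.49). In diabetic against old MCAO mice differences were called for 6 genes: Zfp933 (-0.52), Zkscan4 (-1.14), Zfp781 (-0.47), Zfp964 (-0.56), Zfp874a (-0.44) and Zfp770 (-0.39). Each of these values means a more negative IP minus CL in diabetic mice.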

How the results depend on the processing

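In diabetic MCAO mice, 11 of the 32 genes that passed the study's filter on the standard deviation were lower and 1 higher (median -0.39). At an adjusted p under 0.05 it was 13 lower and 0 higher, and with median centring 8 were higher. Leaving out 1 mouse gave 46 (without MCAO mouse 2) to 79 lower and 2 to 8 higher. With no replicate block 59 were lower, 58 of them among the 72; it ended 2 calls of named genes and changed no other of them. For IP minus CL in MCAO minus sham, the filter on the standard deviation gave 1 lower in diabetic mice (median -0.40) and that on the mean signal 11, and leaving out 1 mouse 0 to 4 (without MCAO mouse 8) in diabetic, 0 to 1 in old (without MCAO mouse 8) and 0 to 1 in male mice (without MCAO mouse 6). In old MCAO mice the mean signal filter gave 5 lower and leaving out 1 mouse 0 to 4 (without MCAO mouse 8), and the old sham median was 0.15 under the standard deviation filter. In male MCAO mice these filters gave 3 and 1 lower, and the male sham median ran from -0.0684 to -0.0199 without 1 sham mouse. Diabetic minus male gave 5 higher with median centring, 0 and 0 at 0.05, and 7 to 23 lower and 0 to 9 higher without 1 mouse. Diabetic minus old gave 0 lower at 0.05, and 1 to 16 lower and 0 to 2 higher without 1 mouse. In IP arrays 0 were lower at 0.05 in diabetic mice, and without 1 mouse 0 to 40 lower and 0 to 1 higher in diabetic, 0 to 1 lower in old, and 1 to 2 lower and 0 to 3 higher in male mice. The settings for single hemispheres and for sham, and the filters for MCAO minus sham, were chosen after seeing the data. No named value changed sign in any of the settings run: 81 lost the call and 553 kept it with 1 mouse left out, and 40 lost it and 194 kept it otherwise, 32 of the 40 at 0.05.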
